A study of Mus musculus with 9 samples.

Results

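The vessels of the developing midbrain were examined through 10 marker genes, 6 of endothelial cells (*Cldn5*, *Pecam1*, *Cdh5*, *Kdr*, *Flt1* and *Tek*) and 4 of pericytes (*Pdgfrb*, *Rgs5*, *Kcnj8* and *Abcc9*). They were chosen by name, with earlier results of these data known, and all 10 were found by identifier among the 51912 genes of the table of normalized counts. The values come from RNA sequencing of dissected mouse midbrain at E14.5, with 9 libraries of 2 pooled midbrains each. The libraries fall into 3 genotypes of the *Nkx2.9* gene on a C57Bl/6 background, namely wild type (+/+), heterozygous (LacZ/+) and homozygous for the LacZ allele (LacZ/LacZ), with 3 libraries each. In this allele LacZ takes the place of exon 1 of *Nkx2.9*. Libraries are called by their column in the table, which names a genotype only: 1 to 3 are LacZ/LacZ, 4 to 6 are LacZ/+ and 7 to 9 are +/+.

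Blood vessels grow into the neural tube from a plexus around it. Endothelial cells form the wall of each vessel, and VEGF from neural cells guides them through the receptor tyrosine kinases *Kdr* and *Flt1*. They recruit pericytes by releasing PDGF-B, which is read by *Pdgfrb* on the pericyte. Pericytes then wrap the capillary from the outside and are needed for a tight blood-brain barrier, whose junctions contain claudin-5, the product of *Cldn5*.

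No difference between the genotypes was detected for any of the 10 markers. Between LacZ/LacZ and +/+ the log2 fold changes ran from -0.48 for *Kcnj8* to 0.39 for *Pecam1*. All 10 of the 95% confidence intervals included 0, in this comparison and in the other two. All markers had reads in every library: the fewest were 10, for *Tek* in column 7, and the most 490, for *Rgs5* in column 8.

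The libraries held between 1692963 and 5942192 reads on genes, with columns 4 (2584074 reads) and 7 (1692963 reads) the shallowest. The 10 markers together took 0.0300% ± 0.00249 of these reads (SD, n = 9). Of the markers of the labelled tissue, all 9 (*En1*, *En2*, *Otx2* and *Pax7* among them) had reads in every library. The title of the series speaks of cortex, whereas the sample labels give midbrain. The targeted gene *Nkx2-9* had 4, 6 and 3 reads in the LacZ/LacZ libraries, 0, 7 and 4 in LacZ/+ and 0, 2 and 2 in +/+. In normalized counts all LacZ/LacZ libraries (2.58 to 5.49) lay above all +/+ libraries (0 to 1.47), and LacZ/+ ran from 0 to 5.98. The libraries labelled LacZ/LacZ thus did not hold the fewest reads, and these 28 reads are too few to check the labels. *Xist*, the RNA of the inactive X chromosome of females, had 4607 to 5182 normalized counts in the LacZ/LacZ libraries, 14.52 to 2929 in LacZ/+ and 47.1 to 4342 in +/+. *Xist* thus varied widely within LacZ/+ and +/+ and was high in all 3 LacZ/LacZ libraries. With the *Xist* level of each library as a covariate, limma called 0 of the 10 markers at an unadjusted p under 0.05 in each comparison. Without the covariate limma also called 0, so the covariate could not lower this count. None of the 10 markers lies on a sex chromosome. Since *Xist* was high in every LacZ/LacZ library, its level and this genotype cannot be fully told apart here. Genotypes below are those of the column headers, which could not be checked, and the direction of every comparison rests on them.

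The level of the markers was first compared between genes, as normalized count per kilobase of annotated exon, averaged over the 9 libraries. *Rgs5* (67.2 ± 9.93, SD, n = 9) and *Cldn5* (65.1 ± 11.1) were highest, and *Rgs5* was above *Cldn5* in 6 of 9 libraries, so their order is not settled. *Pdgfrb* followed with 33.4 ± 5.13, below *Cldn5* in all 9 libraries and with no overlap of their ranges. *Kdr* (24.8 ± 2.91) and *Cdh5* (20.01 ± 2.23) came next, each below the gene before it in all 9 libraries. *Abcc9* (15.4 ± 1.90), *Pecam1* (12.8 ± 2.25) and *Kcnj8* (11.95 ± 2.72) did not separate beyond their spread, since each was above the next in only 7 or 6 of 9 libraries. *Tek* (9.50 ± 2.31) lay below *Kcnj8* in 6 of 9 libraries and *Flt1* (7.10 ± 0.881) below *Tek* in 7 of 9. The lengths are those of all annotated exons merged, which for *Flt1* come to 13504 bases, so a gene with long exons that are rarely used appears lower on this scale.

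**Figure D1:**
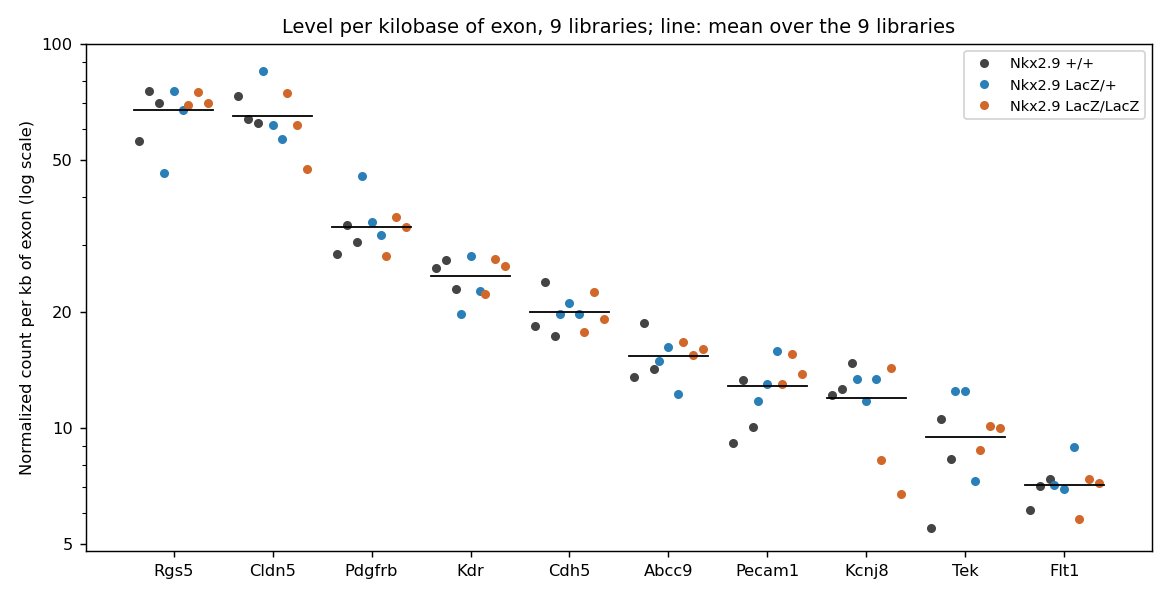
The normalized count per kilobase of exon of each marker is plotted on a log axis, with 1 point per library coloured by genotype and a line at the mean of the 9 libraries. Rgs5 (67.2) and Cldn5 (65.1) lie highest and Flt1 (7.10) lowest, and the colours are mixed within each gene.

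The junction and adhesion genes of the endothelium were taken first. *Cldn5* (chromosome 16, 18776847 to 18778262, plus strand, GRCm38) is a single-exon gene for the claudin that seals brain endothelium. It had 103, 90.5 and 88.3 normalized counts in the +/+ libraries, 121, 87.1 and 80.0 in LacZ/+ and 105, 86.9 and 67.0 in LacZ/LacZ. The genotypes overlapped throughout, and the lowest and the second highest value belong to the same genotype, LacZ/LacZ. The log2 fold change of LacZ/LacZ over +/+ was -0.14 (95% confidence interval -0.59 to 0.31, limma p = 0.51, exact permutation p = 0.6).

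*Cdh5* (chromosome 8, 104101625 to 104144511, plus strand) encodes VE-cadherin, the adhesion molecule of endothelial adherens junctions. It had 77.6, 101 and 72.9 normalized counts in the +/+ libraries, 83.1, 88.8 and 83.2 in LacZ/+ and 74.5, 95.1 and 80.7 in LacZ/LacZ. These were the closest means among the 10 genes, at 83.8 ± 15.1, 85.0 ± 3.26 and 83.5 ± 10.6 (SD, n = 3 each). The ratio of LacZ/LacZ to +/+ had a 95% confidence interval from 0.757 to 1.32 (limma, unadjusted p = 0.997).

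*Pecam1* (chromosome 11, 106654217 to 106750628, minus strand) encodes CD31, an adhesion protein at endothelial cell contacts. It had 56.9, 82.8 and 62.6 normalized counts in the +/+ libraries, 73.3, 81.1 and 98.7 in LacZ/+ and 81.3, 97.0 and 85.9 in LacZ/LacZ. Columns 7 and 9 of +/+ were the lowest of the 9, and column 8 of the same genotype lay among the others. *Pecam1* had the smallest p of the 10 markers between LacZ/LacZ and +/+, with 0.39 on the log2 scale (95% confidence interval -0.03 to 0.82, limma p = 0.0688, exact permutation p = 0.2), and it did not pass 0.05. Without column 8 the log2 fold change was 0.55 (limma, unadjusted p = 0.0244), and that of LacZ/+ over +/+ was 0.48 (limma, unadjusted p = 0.0444), where all libraries gave 0.33. Leaving out another library could also lower these values, to 0.28 without column 7 in the first comparison and to 0.21 without column 6 and 0.22 without column 7 in the second.

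The receptors of VEGF and angiopoietin are the signalling members. *Kdr* (chromosome 5, 75932827 to 75978458, minus strand), the VEGF receptor that drives vessel growth, had 235, 248 and 208 normalized counts in the +/+ libraries, 179, 254 and 205 in LacZ/+ and 202, 249 and 239 in LacZ/LacZ. The means of +/+ and LacZ/LacZ were 230.5 ± 20.1 and 229.8 ± 24.8 (SD, n = 3 each). Its 95% confidence interval was the narrowest of the markers, with a ratio of 0.996 (0.791 to 1.25).

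*Flt1* (chromosome 5, 147561604 to 147726011, minus strand) encodes the VEGF receptor that also exists as a soluble decoy. It had 82.8, 95.4 and 99.4 normalized counts in the +/+ libraries, 96.2, 93.9 and 121 in LacZ/+ and 78.3, 99.7 and 97.0 in LacZ/LacZ. The ratio of LacZ/LacZ to +/+ was 0.988 (95% confidence interval 0.756 to 1.29, limma, unadjusted p = 0.927). Per kilobase of exon, *Kdr* was 3.13 to 4.25 times as high as *Flt1* in the +/+ libraries, 2.54 to 4.04 times in LacZ/+ and 3.68 to 3.85 times in LacZ/LacZ. The receptors thus kept their order in every library, and the ratio overlapped between the genotypes.

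*Tek* (chromosome 4, 94739289 to 94874976, plus strand) encodes TIE2, the angiopoietin receptor of endothelial cells. It had 25.9, 49.8 and 39.0 normalized counts in the +/+ libraries, 58.7, 58.9 and 34.3 in LacZ/+ and 41.4, 47.6 and 47.2 in LacZ/LacZ. It varied most of the 10 markers, with a coefficient of variation of 24.3% over the 9 libraries, and both the lowest and the third lowest value belong to +/+. The log2 fold change over +/+ was 0.29 in LacZ/LacZ (95% confidence interval -0.32 to 0.89) and 0.40 in LacZ/+ (-0.20 to 1.01), with an unadjusted p of 0.33 and 0.179 in limma. Without column 6 the second value was 0.66 (limma, unadjusted p = 0.0416). Both depended on column 7, with its 10 reads: without it they were 0.038 and 0.15, and without column 8 they were 0.50 and 0.61.

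Among the pericyte genes, *Pdgfrb* (chromosome 18, 61045150 to 61085061, plus strand) is the receptor through which pericytes are recruited. It had 155, 185 and 167 normalized counts in the +/+ libraries, 248, 189 and 174 in LacZ/+ and 154, 194 and 183 in LacZ/LacZ. Column 4 of LacZ/+, a shallow library with 152 reads of the gene, stood above the others. The ratio to +/+ was 1.04 (95% confidence interval 0.818 to 1.33) in LacZ/LacZ and 1.19 (0.934 to 1.52) in LacZ/+ (limma, unadjusted p = 0.72 and 0.147).

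*Rgs5* (chromosome 1, 169655501 to 169695813, plus strand), a regulator of G-protein signalling enriched in brain pericytes, had 253, 344 and 319 normalized counts in the +/+ libraries, 210.2, 342 and 306 in LacZ/+ and 316, 340.2 and 319 in LacZ/LacZ. The lowest values were those of the 2 shallowest libraries, columns 4 and 7, and the other 7 lay between 306 and 344. The ratio of LacZ/LacZ to +/+ was 1.07 (95% confidence interval 0.832 to 1.38, limma, unadjusted p = 0.563).

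*Kcnj8* and *Abcc9* encode the pore (Kir6.1) and the regulatory subunit (SUR2) of the ATP-sensitive potassium channel of mural cells, the contractile and supporting cells around vessels. They are neighbours on chromosome 6, both on the minus strand, with *Kcnj8* from 142564837 to 142571614, *Abcc9* from 142587862 to 142702315, and 16247 bases between them. *Kcnj8* had 31.0, 32.3 and 37.5 normalized counts in the +/+ libraries, 34.2, 29.9 and 34.3 in LacZ/+ and 21.1, 36.6 and 17.2 in LacZ/LacZ. Columns 1 and 3 of LacZ/LacZ were the lowest of all, while column 2 of the same genotype was the second highest. *Kcnj8* therefore had the largest fold change of the 10 markers, a log2 fold change of -0.48 against +/+ (95% confidence interval -1.12 to 0.16, limma p = 0.13, exact permutation p = 0.3) and of -0.45 against LacZ/+ (-1.09 to 0.19, limma p = 0.157). Without column 2 these were -0.78 and -0.75 (limma, unadjusted p = 0.0222 and 0.0273), and without column 3 they were -0.26 and -0.23 (limma, unadjusted p = 0.428 and 0.487). The gene rested on 12 to 51 reads per library.

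*Abcc9* had 114, 157 and 119 normalized counts in the +/+ libraries, 125, 136 and 103 in LacZ/+ and 140.0, 129.9 and 135 in LacZ/LacZ. It overlapped between the genotypes, with a ratio of LacZ/LacZ to +/+ of 1.05 (95% confidence interval 0.812 to 1.35). The channel subunits did not follow each other between libraries. Per kilobase of exon *Abcc9* was 2.02, 1.08 and 2.39 times as high as *Kcnj8* in the LacZ/LacZ libraries, against 0.967 to 1.48 times in +/+ and 0.913 to 1.38 times in LacZ/+. Of its exons, 158 bases are shared with *5330439B14Rik* on the other strand, and reads there cannot be assigned where strand was not used.

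**Figure D2:**
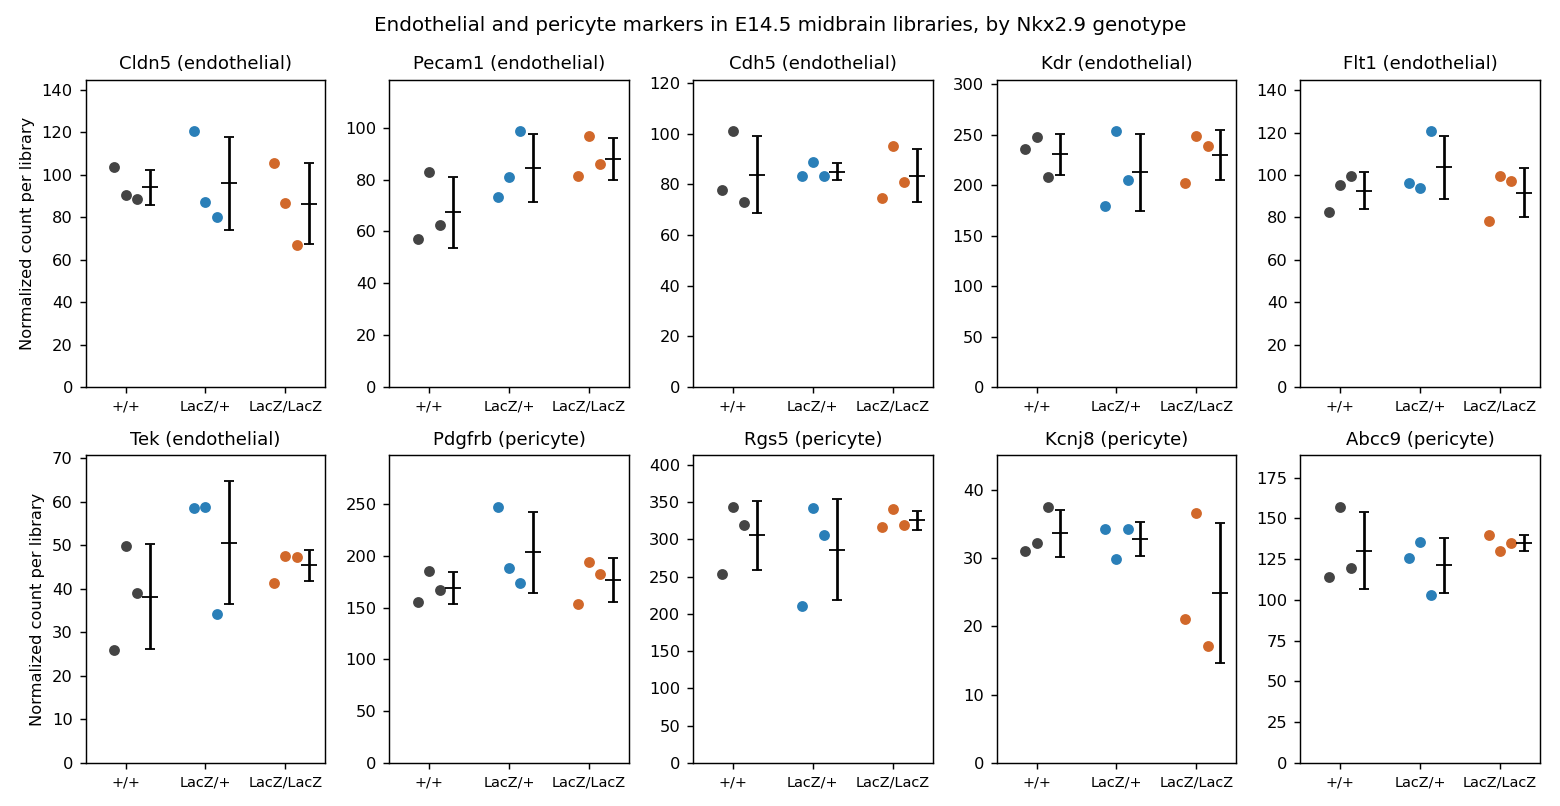
Each panel plots the normalized count of a marker gene (axis from 0) in the 3 libraries of each genotype as points, with the mean and the standard deviation as a bar beside them. The genotypes overlap in all 10 panels; Kcnj8 is low in 2 of the 3 Nkx2.9 LacZ/LacZ libraries (21.1 and 17.2) and high in the third (36.6).

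Counted over the 10 markers, 0 had an unadjusted limma p under 0.05 between LacZ/LacZ and +/+, where 2.60% of the 16993 genes tested did (441 genes). None of the 10 had values that did not overlap between these genotypes, where 9.52% of all genes did. Between LacZ/+ and +/+ the counts were again 0 and 0, beside 2.78% (473 genes) and 6.91% of all genes. Between LacZ/LacZ and LacZ/+ they were 0 and 0, beside 2.64% (449 genes) and 8.71%. All 10 markers passed the minimum mean normalized count of 5. With Benjamini-Hochberg adjustment over all genes, 0% of the 16993 genes had an adjusted limma p under 0.05 in any of the 3 comparisons. On the recovered reads, edgeR and DESeq2 also called 0 of the 10 markers at an unadjusted p under 0.05 in each comparison. An exact permutation test of 3 libraries against 3 cannot give a two-sided p under 0.1, and these 30 tests gave 0.2 to 1.

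The intervals state what size of change these libraries leave possible. Between LacZ/LacZ and +/+, 9 of 10 intervals lay within a 2-fold change in either direction and 6 within 1.5-fold. *Kcnj8* was the exception at 2-fold, with a lower bound of 0.459 times the level in +/+, and *Tek* had the highest upper bound with 1.86. Between LacZ/+ and +/+ it was *Tek* that passed 2-fold, with an upper bound of 2.01. The median log2 fold change between LacZ/LacZ and +/+ was -0.0029 over the 6 endothelial and 0.06 over the 4 pericyte genes, beside 0.01 over all genes tested. For LacZ/+ against +/+ these medians were 0.10, -0.06 and -0.0069, and for LacZ/LacZ against LacZ/+ they were -0.07, -0.02 and 0.02. The comparisons share libraries. In tissue as a whole, fewer cells of a type and less RNA per cell cannot be told apart.

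**Figure D3:**
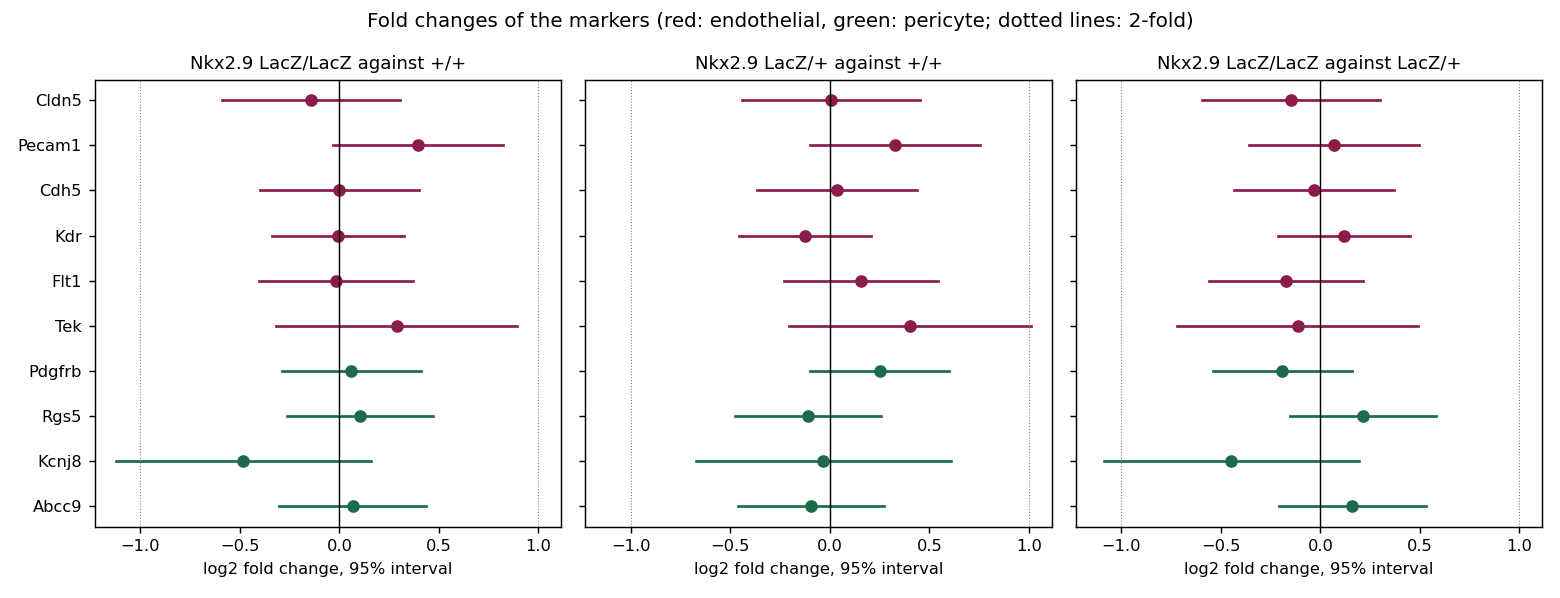
The log2 fold change of each marker (point) with its 95% confidence interval (line) is plotted for the 3 comparisons, with endothelial genes in red, pericyte genes in green and dotted lines at 2-fold. Every interval includes 0; that of Kcnj8 passes 2-fold in both comparisons of Nkx2.9 LacZ/LacZ, with lower bounds of -1.12 and -1.09.

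The spread between libraries was next set beside the counting error. Over the 9 libraries the coefficient of variation ran from 11.2% for *Cdh5* to 24.3% for *Tek*, where counting alone would give 11.4% and 15.6%. On the scale of reads, which gives deep libraries more weight than the coefficient of variation does, the variance of *Cdh5* was 1.31 times that of counting, the smallest ratio of the 10 markers, so for *Cdh5* the measures fall on either side of counting error. *Rgs5*, the gene with the most reads (3090 in all), had the largest excess, with a variance of 4.38 times that of counting, and *Pdgfrb* (3.18 times) and *Kdr* (3.02 times) followed. *Kcnj8*, with 295 reads in all, had a coefficient of variation of 22.8%, where counting alone would give 19.0%, and a variance of 1.91 times that of counting. Its spread lay mostly within LacZ/LacZ, where the coefficient of variation was 41.2%, against 10.3% in +/+ and 7.68% in LacZ/+.

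Whether endothelial and pericyte genes varied together was described by the mean of log2(normalized count + 1) over the genes of each group in a library. The endothelial mean ran from 6.31 in column 7 to 6.65 in column 2, and the pericyte mean from 6.78 in column 3 to 7.08 in column 8. Over the 9 libraries the means had a Pearson's r of 0.73 and a Spearman's rho of 0.75. Without columns 7 and 9, the libraries farthest from the median of the endothelial mean, r was 0.96 over 7 libraries. Without columns 4 and 7, the shallowest libraries, r was 0.66 over 7. Both means come from the same library and share its scaling, and no p is given for them because the genes were chosen with earlier results known. In single pairs of genes the relation was loose. Of the 45 pairs, 31 had a positive and 14 a negative r, with a median of 0.16, from -0.67 for *Cldn5* with *Rgs5* to 0.74 for *Tek* with *Pdgfrb*. *Kcnj8* and *Abcc9*, the subunits of the same channel, had an r of -0.36.

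**Figure D4:**
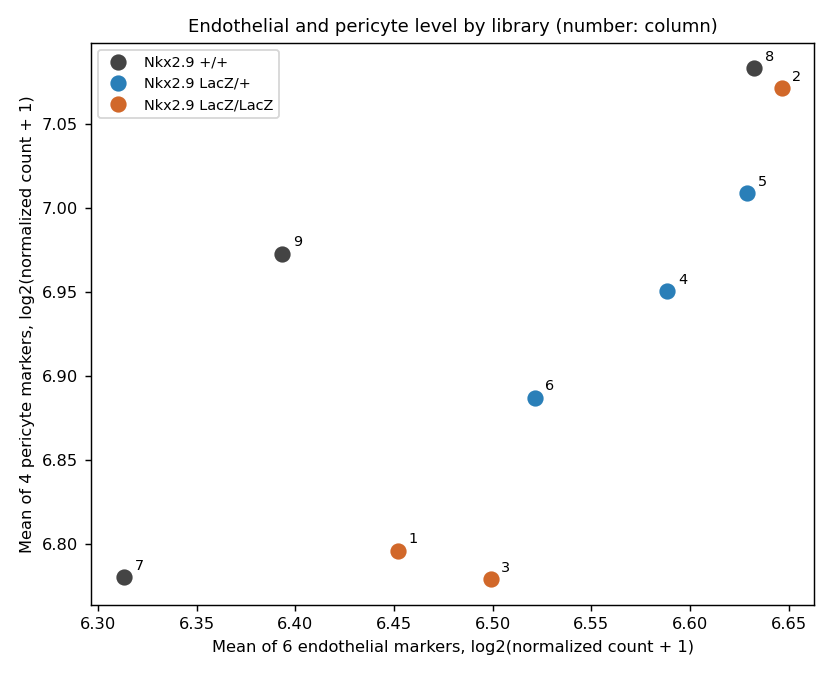
For each library, numbered by column, the mean log2(normalized count + 1) of the 4 pericyte genes is plotted against that of the 6 endothelial genes, coloured by genotype. Columns 8 and 2, of different genotypes, lie together at the upper right and column 7 at the lower left; column 9 lies above its neighbours, columns 7 and 1.

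The pericyte mean exceeded the endothelial mean by 0.45 to 0.58 on the log2 scale in the +/+ libraries, by 0.36 to 0.38 in LacZ/+ and by 0.28 to 0.42 in LacZ/LacZ. On this measure +/+ did not overlap with the others, though column 8 of +/+ (0.451) was close to column 2 of LacZ/LacZ (0.425). Of all genes tested, 9.52% did not overlap between LacZ/LacZ and +/+, and 6.91% between LacZ/+ and +/+. When summed normalized counts were used instead, the pericyte sum was 0.951 to 1.13 times the endothelial sum in +/+, 0.992 to 1.05 times in LacZ/+ and 1.04 to 1.08 times in LacZ/LacZ, and the genotypes overlapped. The first measure gives *Kcnj8* and *Tek*, with few reads, the same weight as *Rgs5* and *Kdr*, and the difference was not tested.

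Other genes of the same cells were read from lists. Of 22 other endothelial genes tested, 0 passed an unadjusted limma p of 0.05 between LacZ/LacZ and +/+ (median log2 fold change -0.05), and 0 rose and 2 fell in LacZ/+ against +/+ (median -0.05). These were *Slco1c1*, a thyroid hormone transporter of brain endothelium, with 42.5 ± 3.02 against 65.4 ± 15.0 normalized counts (SD, n = 3 each, log2 fold change -0.59, limma, unadjusted p = 0.0352), and *Abcb1a*, a drug efflux pump. *Abcb1a* had 3.26, 23.1 and 10.6 normalized counts in LacZ/+ and 28.4, 27.4 and 17.7 in +/+, which overlapped (log2 fold change -1.24, limma, unadjusted p = 0.0273, exact permutation p = 0.2). Its value in column 4 rested on 2 reads, and without column 4 the log2 fold change was -0.58 (limma, unadjusted p = 0.173). It also missed 0.05 without column 7 or 8 (-1.12 and -1.15), and with all libraries in edgeR (-0.83, unadjusted p = 0.0874) and DESeq2 (-0.87, unadjusted p = 0.0801). *Slco1c1* also missed 0.05 when column 4, 5 or 7 was left out, with log2 fold changes of -0.53, -0.61 and -0.41, and in DESeq2 with all libraries (unadjusted p = 0.0594). With *Xist* as a covariate, both missed it (limma, unadjusted p = 0.0509 for *Abcb1a* and 0.0881 for *Slco1c1*). Their adjusted p in limma was 1.00. *Slc2a1*, the glucose transporter of the barrier and the highest of the list, had 225 ± 30.5 normalized counts in LacZ/LacZ and 243 ± 33.9 in +/+ (SD, n = 3 each). Of 14 other pericyte and mural genes, 9 had a mean over the minimum and 0 passed in any comparison, with a median of -0.16 between LacZ/LacZ and +/+. *Notch3*, a receptor of mural cells that progenitors of the neural tube also express, was the highest of them, with 328 ± 31.2 in LacZ/LacZ and 371 ± 22.8 in +/+ (SD, n = 3 each). *Tagln* and *Cnn1*, genes of smooth muscle, stayed under the minimum with 23 and 50 reads in all.

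The ligands and co-receptors that act on the markers formed a list of 24, of which 23 were tested. *Vegfa*, the ligand of *Kdr* and *Flt1*, had 288 ± 20.4 normalized counts in LacZ/LacZ and 275 ± 43.6 in +/+ (SD, n = 3 each, limma, unadjusted p = 0.613). Between these genotypes 1 gene fell and 0 rose. This was *Pdgfb*, the endothelial ligand of *Pdgfrb*, with 38.4, 22.0 and 24.0 normalized counts in LacZ/LacZ and 62.1, 40.0 and 37.5 in +/+, which overlapped. Its log2 fold change was -0.71 (95% confidence interval -1.33 to -0.10, limma p = 0.0259, adjusted p = 1.00, exact permutation p = 0.2). It missed 0.05 when column 2, 3 or 7 was left out, with log2 fold changes of -0.56, -0.62 and -0.49, and in DESeq2 with all libraries (-0.65, unadjusted p = 0.0556). Its value in column 7 rests on 24 reads. In the other comparisons 0 of the 23 genes passed.

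Markers of other cells in and around vessels were summed per library. The 10 red blood cell genes came to 1499 to 2175 normalized counts in +/+, 1626 to 2273 in LacZ/+ and 1554 to 1905 in LacZ/LacZ, with 0 of 8 tested genes passing in any comparison (*Hba-a1*, an adult alpha globin, was highest). The 8 microglia genes came to 110.4 to 139.6, 104 to 135 and 96.2 to 124, in the same order. Of the 7 tested, 1 fell between LacZ/LacZ and LacZ/+, *C1qb*, a complement gene (log2 fold change -1.46, limma, unadjusted p = 0.0172), which was -0.80 without column 3 and -1.25 without column 6 and then missed 0.05. *Csf1r*, the highest of them, had 44.6 ± 8.51 in LacZ/LacZ and 43.0 ± 5.98 in +/+ (SD, n = 3 each). The 8 genes of meningeal fibroblasts came to 245 to 356 in +/+, 200 to 229 in LacZ/+ and 189.7 to 285 in LacZ/LacZ, and the sums of LacZ/+ all lay below those of +/+. Of all genes tested, 6.91% did not overlap between LacZ/+ and +/+, in either direction. The part of meningeal fibroblasts in the values of the pericyte genes was not tested. No gene of these lists was at 0 in every library.

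Among the meningeal genes, 1 of 5 tested passed between LacZ/LacZ and +/+. It was *Foxc1* (chromosome 13, 31806633 to 31812476), a forkhead factor of the meninges that brain pericytes also express. *Foxc1* had 10.5, 12.8 and 12.9 normalized counts in LacZ/LacZ, 24.4, 21.3 and 18.8 in LacZ/+ and 25.9, 25.3 and 23.6 in +/+, with 10 to 36 reads per library. The LacZ/LacZ libraries lay below all others. The log2 fold change against +/+ was -0.99 (95% confidence interval -1.66 to -0.32, limma p = 0.00677, adjusted p = 1.00, exact permutation p = 0.1, the smallest that 3 against 3 allow) and that against LacZ/+ was -0.78 (limma, unadjusted p = 0.0258). Without the minimum mean count the unadjusted limma p of *Foxc1* was 0.0166 and 0.0526. The call against +/+ held when each library was left out in turn, and that against LacZ/+ was lost without column 1, 4 or 5 (log2 fold changes -0.69, -0.69 and -0.78), in DESeq2 (unadjusted p = 0.0548) and with *Xist* as a covariate (limma, unadjusted p = 0.10). *Col1a1*, a fibrillar collagen, passed in LacZ/+ against +/+ with 41.7 ± 9.38 and 71.4 ± 14.1 (SD, n = 3 each, log2 fold change -0.77, limma, unadjusted p = 0.00766, adjusted p = 1.00). Of the 9 midbrain genes 3 were lower in the libraries labelled LacZ/LacZ than in those labelled +/+ (*Pax7*, *En1* and *Pitx3*), and of the 3 cortex genes tested 1 was higher (*Neurod6*, limma, unadjusted p = 0.0481), each with an adjusted limma p of 1.00. Which genotype is the lower one rests on the column headers, which could not be checked. Each of these 4 calls was lost when single libraries were left out: *Pax7* without column 3 or 7, *En1* without column 1, 7 or 9, *Pitx3* without column 1, 2, 8 or 9, and *Neurod6* without column 1, 2, 6 or 7. With all libraries, *Pitx3* missed 0.05 in DESeq2 (unadjusted p = 0.0545), *En1* with *Xist* as a covariate (limma, unadjusted p = 0.111), and *Neurod6* with a minimum of 20 (limma, unadjusted p = 0.0521), in edgeR (0.0542), in DESeq2 (0.062) and with *Xist* as a covariate (0.0547). Without column 7 the log2 fold change of *Neurod6* was 0.41 in place of 0.72.

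The genes whose values followed the markers most closely over the 9 libraries were taken among 12480 other genes whose mean was 20 normalized counts or more. For the endothelial mean these were *Gm37530* (Pearson's r = 0.97), *Slc7a11* (0.96), *Nhlrc2* (0.92), *Phf12* (0.91) and *Ispd* (0.89). For the pericyte mean they were *Rad51c* (0.90), *Dock1* (0.90), *Aptx* (0.89), *Hic2* (0.87) and *Spata6* (0.87). None belongs to the vessel lists. The 13 other endothelial genes above this minimum had a median r of 0.22 with the endothelial mean and the 5 other pericyte and mural genes had a median r of 0.28 with the pericyte mean, beside 0.0078 and 0.01 over all 12480 genes. Across the cell types the medians were similar, with 0.27 for the pericyte and mural genes against the endothelial mean and 0.17 for the endothelial genes against the pericyte mean. With 9 libraries and this number of genes, high values of r are a description of these libraries only.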

How the data were processed

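The deposited values are a signal per gene and library, the normalized count. The authors made it from ribosome-depleted RNA of dissected E14.5 midbrains (100-bp paired ends, as the methods state; the labels name Trizol and an mRNA protocol) with HISAT2 on GRCm38/mm10, featureCounts and a DESeq2 size factor per library. Tool versions, annotation release and strand setting are not given in the sources used here. The 3 deposited tables of the authors' DESeq2 comparisons (log2 fold change, statistic and p-value) were not used.

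Columns were grouped by the genotype in their header. Of 51912 identifiers, 51719 matched GENCODE M21 (GRCm38), which gave names, positions and exon lengths, 193 did not, and 0 entries named no gene. All 210686 values above 0 (100%) were whole multiples of the smallest value of their library within 0.001, so read counts were recovered.

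The 16993 genes whose mean was 5 normalized counts or more were compared in R 4.3.3 by limma 3.58.1 (eBayes with a trend, two-sided, Benjamini-Hochberg adjustment) on the log2 of the normalized count plus 1, which understates the change of low genes. The 9 libraries entered 1 fit without covariates. Exact permutation tests of 3 libraries against 3 were run with scipy 1.17.1. The tests were tried on simulated reads. The methods name few litters for their experiments and do not say which libraries shared a litter. The p-values treat the libraries as independent, and may be too small if libraries of a genotype shared a litter.

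Alternatives were pseudocount 5, no minimum or a minimum of 20, only the genotypes compared, upper-quartile scaling, edgeR 4.0.16 with TMM and DESeq2 1.42.0 on recovered reads, and leaving out each library. The correlation without columns 4 and 7, the alternatives for genes of the other lists and the *Xist* covariate were added after seeing the data. The markers and lists were chosen with earlier results of these data known. Genes named besides the markers are the 3 with the smallest p under 0.05 between LacZ/LacZ and +/+ in each list (or its highest gene), the 5 most alike for each group of markers, and *Nkx2-9*. *Vegfa*, *Slco1c1*, *Abcb1a*, *Col1a1*, *C1qb*, *Xist*, *En2*, *Otx2*, *Tagln*, *Cnn1* and *Tbx18* were named after their values were seen. Figures were drawn with matplotlib 3.10.9.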

Additional observations from a re-analysis of the deposited data

How the results depend on the processing

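No paired analysis was possible because the columns carry no replicate number. Of 510 values of the 30 marker fold changes under 17 alternatives, 467 kept their direction and side of the threshold, 5 passed an unadjusted p of 0.05 and 38 turned in sign. The reversals touched 16 fold changes, all of 0.15 or less in size on the log2 scale with all libraries and no covariate. With all libraries they were *Cdh5* in LacZ/LacZ against +/+ (-0.020 in edgeR and -0.028 in DESeq2) and *Kdr* (0.0069 with upper-quartile scaling and 0.0038 in edgeR). With the *Xist* covariate, added after seeing the data, they were *Cdh5* in LacZ/LacZ against +/+ (-0.031), *Cldn5* in LacZ/+ against +/+ (-0.010), and *Pecam1* (-0.081) and *Tek* (0.25) in LacZ/LacZ against LacZ/+. In what follows the comparisons are LacZ/LacZ against +/+, LacZ/+ against +/+ and LacZ/LacZ against LacZ/+, in this order. Genes with an unadjusted p under 0.05 numbered 1135, 1137 and 1132 without a minimum and 263, 242 and 288 with a minimum of 20, where more and fewer genes were tested. For the second comparison they were 280 with only these genotypes, 264 in DESeq2 and 298 with *Xist* as a covariate, and the cause was not tested. DESeq2 gave 0, 1 and 0 genes with an adjusted p under 0.05, and edgeR 0 in each.

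Leaving out each library in turn gave 283 (without column 2) to 827 (without column 8), 375 (column 2) to 933 (column 4) and 293 (column 2) to 740 (column 5) genes. Markers with an unadjusted p under 0.05 numbered 0 to 1 in each comparison, and markers whose libraries did not overlap 0 to 3 (without column 8), 0 to 3 (column 8) and 0 to 2 (without column 2, 5 or 6). With 2 libraries against 3, 23.1% and 15.3% of all genes did not overlap without column 8 in the first and second comparison, and 16.7% to 19.7% without column 2, 5 or 6 in the third. The log2 fold changes that turned in sign ran, in the first comparison, from -0.30 to 0.027 for *Cldn5*, -0.096 to 0.14 for *Cdh5*, -0.077 to 0.084 for *Kdr*, -0.094 to 0.092 for *Flt1*, -0.0096 to 0.16 for *Pdgfrb*, -0.026 to 0.19 for *Rgs5* and -0.022 to 0.21 for *Abcc9*. In the second they ran from -0.17 to 0.13 for *Cldn5*, -0.058 to 0.17 for *Cdh5*, -0.25 to 0.10 for *Rgs5*, -0.087 to 0.047 for *Kcnj8* and -0.18 to 0.049 for *Abcc9*. In the third they ran from -0.30 to 0.026 for *Cldn5*, -0.027 to 0.18 for *Pecam1*, -0.13 to 0.043 for *Cdh5* and -0.37 to 0.014 for *Tek*. Pearson's r of the endothelial and pericyte means ran from 0.65 (without column 7) to 0.88 (without column 9), and was 0.96 without columns 7 and 9.

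Depth limits what can be seen: a read was worth 2.59 normalized counts in column 7 and 0.702 in column 8, and *Kcnj8* and *Tek* rest on as few as 12 and 10 reads in a library.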

Other observations

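*Tbx18*, a T-box factor of mural cells (chromosome 9, 87702800 to 87731260), had 0 reads in each of the 3 *Nkx2.9*+/+ libraries, 2, 7 and 8 in *Nkx2.9*LacZ/+ and 4, 2 and 2 in *Nkx2.9*LacZ/LacZ. It lay under the minimum mean normalized count, as did other genes of its list, and was named after its values were seen. In limma without a minimum, the unadjusted p was 0.000649 for *Nkx2.9*LacZ/+ and 0.0197 for *Nkx2.9*LacZ/LacZ against *Nkx2.9*+/+, with adjusted p of 1 and 0.963. In that fit, 1137 of 31636 genes had an unadjusted p under 0.05 between *Nkx2.9*LacZ/+ and *Nkx2.9*+/+, and 1135 between *Nkx2.9*LacZ/LacZ and *Nkx2.9*+/+. A fit on log values is weakly founded where every library of a genotype is at 0, and no count test was run for *Tbx18*. No fold change is given for these 25 reads.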
